A study of Mus musculus with 36 samples.

Results

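The liver genes described here encode 8 enzymes of phase I drug and xenobiotic metabolism that are not cytochromes P450. They are the flavin monooxygenases Fmo1, Fmo4 and Fmo5, the epoxide hydrolases Ephx1 and Ephx2, the aldehyde oxidases Aox1 and Aox3, and the related xanthine dehydrogenase gene Xdh. They were chosen by name from the 53715 genes of the count table, and all 8 were among the 14068 genes with enough counts to be tested. The livers came from 36 male C57BL/6 mice aged 10 weeks, with 12 libraries, 1 per mouse number, for each of 3 diets fed from the age of 4 weeks (the labels put 11 to 12 mice in a group). Controls ate AIN93G, a purified rodent diet. The other groups ate it with tomato powder added at 10%, either red, the common lycopene-rich kind, or tangerine, whose lycopene is mainly in cis forms. The labels give no time of day for tissue collection.

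Phase I enzymes add or expose a polar group on a foreign or endogenous compound. Flavin monooxygenases use NADPH to add oxygen to their substrates, typically on a nitrogen or sulfur atom. Epoxide hydrolases open reactive epoxides to diols: the microsomal enzyme of Ephx1 acts mainly on foreign epoxides, and the soluble enzyme of Ephx2 on epoxides of fatty acids. Aldehyde oxidases and xanthine dehydrogenase carry a molybdenum cofactor and oxidise aldehydes, nitrogen heterocycles and purines. Xanthine dehydrogenase makes urate, which the mouse liver breaks down further with urate oxidase.

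The 36 libraries held 21290169 to 33810573 counts each, so that counting noise was small for most of the 8 genes: Fmo4, the least abundant, still had 150 to 436 counts per library. The libraries fell into 2 classes that no label names. The mitochondrial transfer RNA gene mt-Te lay between 1.48 and 3.50 log2 CPM (counts scaled to library size) in 16 libraries and between 4.09 and 4.81 in the other 20. The first principal component over all tested genes (16.3% of the variance) ran from 4.0 to 32.1 in the former and from -23.5 to 2.8 in the latter. The low class held 4 control, 8 red and 4 tangerine libraries, so diet and class were partly confounded. The main fit of each diet comparison below was therefore recomputed with class in the model and within each class. Hepatocyte markers were abundant in every library (80573 to 121310 CPM over 5 genes). Adipose markers summed to at most 0.405 CPM apart from red 186 (6.72 CPM), and pancreas markers to at most 0.395 CPM apart from tangerine 216 (10.4 CPM). Cholangiocyte markers reached 111 CPM in tangerine 192, where the tangerine median was 20.7 CPM, and that liver had the lowest tangerine values of Fmo1 (101.9 CPM) and Xdh (99.4 CPM). Without it the tangerine against control estimates were 0.07 for Fmo1 and 0.10 for Xdh, in place of 0.03 and 0.08. T cell markers summed to 158 CPM in red 186, where the median red library had 2.66 CPM. Without red 186 and tangerine 216 the number of the 8 genes past the threshold was 0 in every comparison, as with them. Because the tissue is whole liver, a change in RNA per cell and a change in the share of cells cannot be told apart for any gene below.

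Where the 8 genes lie is given in GENCODE release M21 for GRCm38, the build named in the submitters' processing notes, and all are annotated as protein coding. Aox1 (58029931 to 58106413) and Aox3 (58113130 to 58200698) are neighbours on the plus strand of chromosome 1. On the minus strand of the same chromosome lie Fmo4 (162793188 to 162813972), Fmo1 (162829561 to 162866610) and Ephx1 (180976210 to 181020904). Fmo5 is on chromosome 3 (97628804 to 97655282, plus strand), Ephx2 on chromosome 14 (66084374 to 66124500, minus strand) and Xdh on chromosome 17 (73883895 to 73950196, minus strand). The spans of Ephx1 and Xdh overlap a pseudogene on the same strand, and that of Aox3 a small nucleolar RNA gene on the other strand. How reads shared between such features or between paralogs were assigned is not given in the sources used here.

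RefSeq promoter windows of GRCm38.p6, from 250 bases before to 50 after a start site, were at hand for 5 of the 8 genes. The windows of Ephx1 and Aox1 are shown because the abundances of these genes moved together from mouse to mouse, as described below. Capitals mark GGGCGG, the core of a GC box, on either strand. The Ephx1 window is chr1:181017520-181017819 on the minus strand, and the Aox1 window is chr1:58029719-58030018 on the plus strand. The Ephx1 window lies inside the annotated gene, whose minus-strand start is at 181020904, so its start site is not the outermost one. The Aox1 window spans the annotated start at 58029931.
Ephx1: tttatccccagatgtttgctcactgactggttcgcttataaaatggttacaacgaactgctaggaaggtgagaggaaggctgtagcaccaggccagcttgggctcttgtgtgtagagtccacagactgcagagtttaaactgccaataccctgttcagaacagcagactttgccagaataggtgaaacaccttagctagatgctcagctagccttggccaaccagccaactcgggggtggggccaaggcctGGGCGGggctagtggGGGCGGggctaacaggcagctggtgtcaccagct
Aox1: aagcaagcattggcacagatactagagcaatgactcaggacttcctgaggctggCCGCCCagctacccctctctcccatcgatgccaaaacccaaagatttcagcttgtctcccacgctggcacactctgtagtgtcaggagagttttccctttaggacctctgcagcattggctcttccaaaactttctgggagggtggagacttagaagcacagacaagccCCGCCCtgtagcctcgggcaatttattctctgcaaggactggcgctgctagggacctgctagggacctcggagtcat
The marked matches lie after the start site of the window in Ephx1 and before that of the window in Aox1. In both windows that site differs from the annotated gene start. Each of these windows holds 2 matches, and 35.7% of the 32851 windows of this length hold at least 1. The antioxidant response core TGACNNNGC, found in 12.4% of windows, is in neither. The dioxin response core GCGTG, found in 32.4%, is in the Aox1 and Aox3 windows and not in that of Ephx1. TATAAA, found in 13.6%, is in the windows of Ephx1 and Fmo5. These motifs overlap one another in no printed window, and a match describes letters only.

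Levels were compared between genes as CPM per kilobase of annotated exon. Ephx2 was the most abundant of the 8, with a median of 335 CPM per kilobase over 36 livers (230 to 430), above the next gene in 36 of 36 libraries. Aox3 (median 111), Ephx1 (107) and Fmo5 (102 CPM per kilobase) were not ordered beyond their spread: Aox3 exceeded Ephx1 in 18 of 36 libraries, and Ephx1 exceeded Fmo5 in 18 of 36. Below them Fmo1 (21.8), Xdh (12.5), Aox1 (6.64) and Fmo4 (3.03 CPM per kilobase) kept that order in all 36 libraries. By this measure Aox3 was the most abundant aldehyde oxidase RNA in these livers, and Aox1 was a minor one. Between mice, Aox3 varied most, with a ratio of 3.03 between its highest and lowest CPM, and Xdh least, with 1.76. The standard deviation of log2 CPM within diets was 0.338 for Aox3 and 0.194 for Xdh, at the 70.2 and 34.9 percentile of all tested genes.

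Several other members of these families had few counts in these livers. Whether low counts came from little RNA or from how reads were counted was not tested. Fmo6, Fmo9, Ephx3, Ephx4, Aox2 and Aox4 did not pass the low-count filter, and none of these exceeded 7 counts in a library. Fmo2 was tested at a median of 5.41 CPM on control, 3.25 on red and 3.27 on tangerine. On red it had an estimate of -0.60 (SE 0.309, edgeR adjusted p 0.398), and 1 red liver of 12 was above the median control. The estimate for Fmo2 was -0.91 in the low and -0.18 in the high library class, and its sign turned, to 0.12, with a score of the circadian clock (described below) as covariate. Lta4h, whose enzyme opens the epoxide of a leukotriene, had medians of 30.0 to 30.9 CPM and log2 fold changes between diets of at most 0.04 in size.

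**Figure D1:**
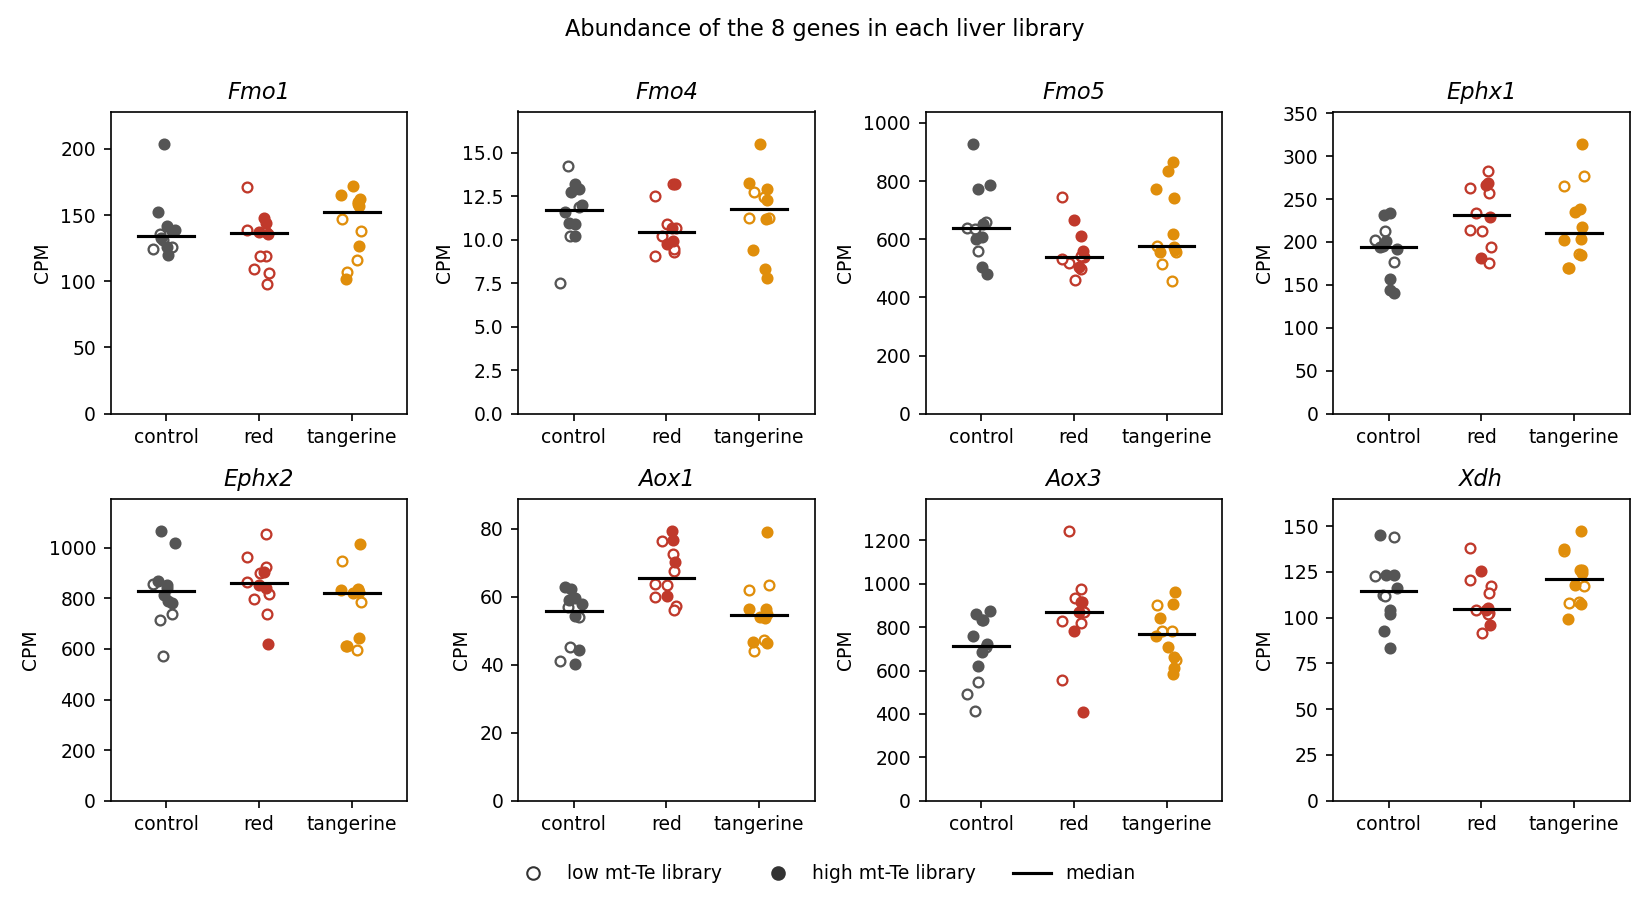
Abundance (CPM, linear axis from 0) of each of the 8 genes in 36 liver libraries, by diet, with a bar at the median of 12 libraries. Open and filled points are libraries low and high in mt-Te. For Aox1 every red point (12) is above the control bar, whereas the diets overlap for every gene.

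To ask whether tomato powder changed these enzymes, red was compared with control. The gene with the clearest difference was Aox1, which was higher on red. Ephx1 and Aox3 were also higher and Fmo5 lower, each with a smaller margin. None of the 8 passed an adjusted p of 0.05 in edgeR's quasi-likelihood test, a threshold that 0.149% of all tested genes passed. At an unadjusted p under 0.05 there were 4 of 8 (3 higher, 1 lower), where the share over all genes was 13.3%. Of the 8 log2 fold changes, 4 were positive and 4 negative, with a median of -0.01 against 0.00 over all genes.

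Aox1 ranged from 40.3 to 62.9 CPM on control (median 55.7, 12 libraries) and from 56.0 to 79.4 CPM on red (median 65.6). Each of the 12 red values exceeded the control median, and 8 exceeded the highest control. In log2 units the difference was 0.33 (SE 0.0861, 95% interval 0.16 to 0.51, edgeR adjusted p 0.0728), a ratio of 1.26. With library class in the model it was 0.37 (edgeR adjusted p 0.0533), and it was 0.39 in the low class and 0.39 in the high class alone. The DESeq2 test (adjusted p 0.0237, with 1.19% of all genes called) and limma-voom (adjusted p 0.0264, with 10.7% called) did call it.

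Ephx1 ranged from 140.2 to 233.5 CPM on control (median 194) and from 175 to 283 CPM on red (median 231). The groups overlapped: 10 of 12 red values exceeded the control median and 6 the highest control. The log2 fold change was 0.28 (95% interval 0.08 to 0.49, edgeR adjusted p 0.194), and 0.28 with library class in the model.

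Aox3 ranged from 412 to 873 CPM on control (median 714) and from 410.1 to 1244 CPM on red (median 869), and 10 red livers of 12 were above the median control. The overall estimate was 0.28 on the log2 scale (95% interval 0.02 to 0.54, edgeR adjusted p 0.338), and the library classes gave unlike values. Within the low class it was 0.73 (SE 0.169), with medians of 518 CPM in 4 controls and 892 CPM in 8 red libraries. Within the high class it was -0.04 (SE 0.167), with medians of 794 and 825 CPM. The difference between the classes was -0.78 (SE 0.248, unadjusted p 0.00339, edgeR adjusted p 0.387 over all genes). The lowest red library was red 186, the one with adipose and T cell transcripts, and without it the log2 fold change over all libraries was 0.35 (edgeR adjusted p 0.153).

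**Figure D2:**
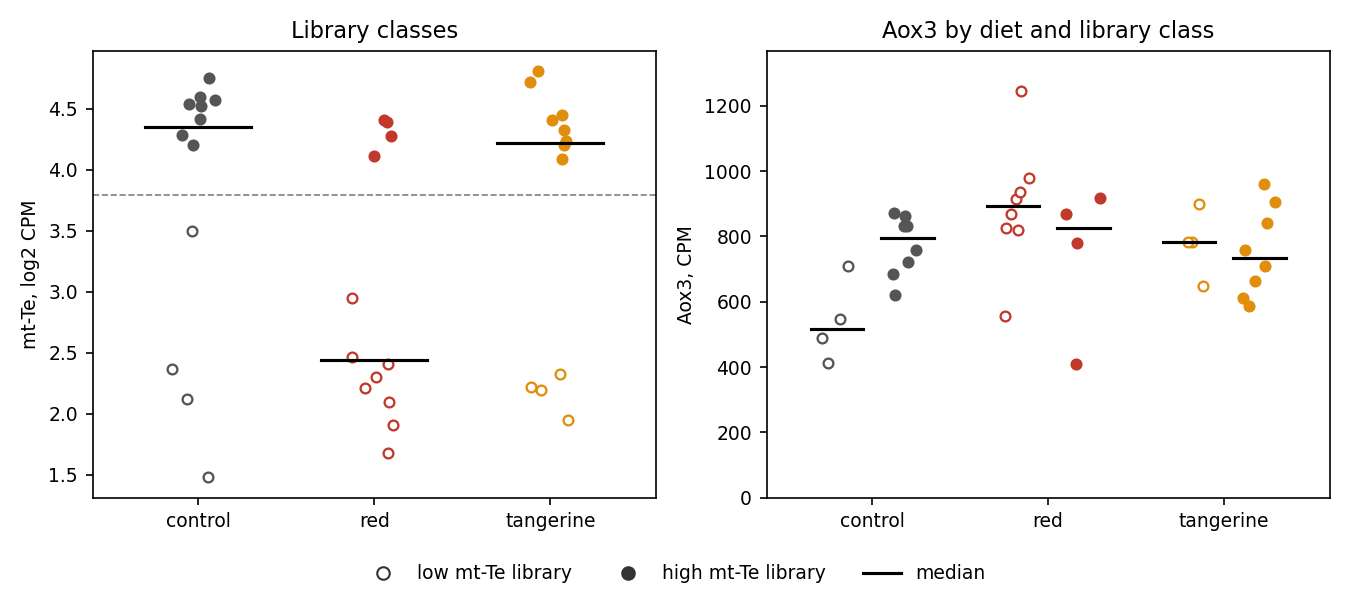
Left, mt-Te (log2 CPM) in each library by diet; the dashed line marks the split into 16 low (open) and 20 high (filled) libraries. Right, Aox3 (CPM, axis from 0) by diet and class, with bars at medians: the low-class controls have a median of 518 CPM and the low-class red libraries of 892 CPM, while the high-class medians are 794 and 825 CPM.

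The difference between the epoxide hydrolases in their response was not tested. Ephx2 had medians of 828 CPM on control (571 to 1067) and 859 CPM on red (621 to 1053), a log2 fold change of 0.05 with a 95% interval of -0.13 to 0.24. As for Aox3 the classes gave unlike values for Ephx2, 0.29 in the low and -0.12 in the high class, a difference of -0.42 (unadjusted p 0.0282, edgeR adjusted p 0.495). The 3 flavin monooxygenases had negative estimates on red. Fmo5 had medians of 637 CPM on control (480.4 to 928) and 540 CPM on red (459 to 745), and 2 of 12 red libraries lay above the control median. For Fmo5 the estimate was -0.22 (95% interval -0.43 to -0.02, edgeR adjusted p 0.343), or -0.16 with library class in the model. Fmo1, with medians of 134 and 136 CPM, had an estimate of -0.09 (95% interval -0.28 to 0.09), and Fmo4, with medians of 11.7 and 10.4 CPM, one of -0.10 (95% interval -0.29 to 0.09). Xdh had medians of 114 CPM on control and 105 CPM on red and a log2 fold change of -0.06 (95% interval -0.22 to 0.09).

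Tangerine powder was compared with control in the same way. The estimates were small, and 0 of 8 genes passed the adjusted threshold with edgeR, DESeq2 or limma-voom. In edgeR that threshold was passed by 0.0142% of all genes. Only Ephx1 had an unadjusted p under 0.05, against 5.47% of all genes. It ranged from 169 to 314 CPM on tangerine (median 210.4), with 8 of 12 libraries above the control median and 5 above every control. Its log2 fold change was 0.22 (95% interval 0.02 to 0.43, edgeR adjusted p 0.837). Aox1, at a median of 54.5 CPM (44.2 to 79.2), had an estimate of 0.06 (95% interval -0.11 to 0.23), with 5 of 12 libraries above the control median. The remaining estimates ran from -0.08 (Ephx2) to 0.13 (Aox3, 95% interval -0.12 to 0.39). For Aox3 the estimate was 0.53 in the low and -0.03 in the high class, against the same controls as before, a difference of -0.56 (unadjusted p 0.0270, edgeR adjusted p 0.224).

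The tomato types were then compared directly. No member of the 8 passed the adjusted threshold, which 1.71% of all genes passed. Aox1 alone had an unadjusted p under 0.05, against 15.1% of all genes. On tangerine it had a log2 fold change against red of -0.27 (95% interval -0.45 to -0.10, edgeR adjusted p 0.0950), and of -0.25 and -0.36 within the low and high library classes. This estimate depended on tangerine 226, whose 79.2 CPM of Aox1 stood above the next tangerine library at 63.6 CPM. Without that library the log2 fold change was -0.33 and Aox1 passed (edgeR adjusted p 0.0231). The same liver held the highest tangerine values of Ephx1 (314 CPM), Ephx2 (1015 CPM) and Aox3 (961 CPM) and the lowest of Fmo4 (7.77 CPM). Fmo5 had an estimate of 0.19 (95% interval -0.02 to 0.39) and Xdh one of 0.14 (-0.02 to 0.30). The estimate for Ephx1 was -0.06 (95% interval -0.26 to 0.14).

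Both tomato diets together were also set against control, for the effect of eating tomato of either type. In this comparison 0 of 8 genes passed with edgeR, DESeq2 or limma-voom, and 0.00711% of all genes did in edgeR. At an unadjusted p under 0.05 there were 2 of 8, both higher, against 6.77% of all genes. These were Ephx1, at 0.25 (95% interval 0.08 to 0.43, edgeR adjusted p 0.562), and Aox1, at 0.20 (95% interval 0.04 to 0.35, edgeR adjusted p 0.604). The comparisons with control share the same 12 control livers and are not independent of one another.

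**Figure D3:**
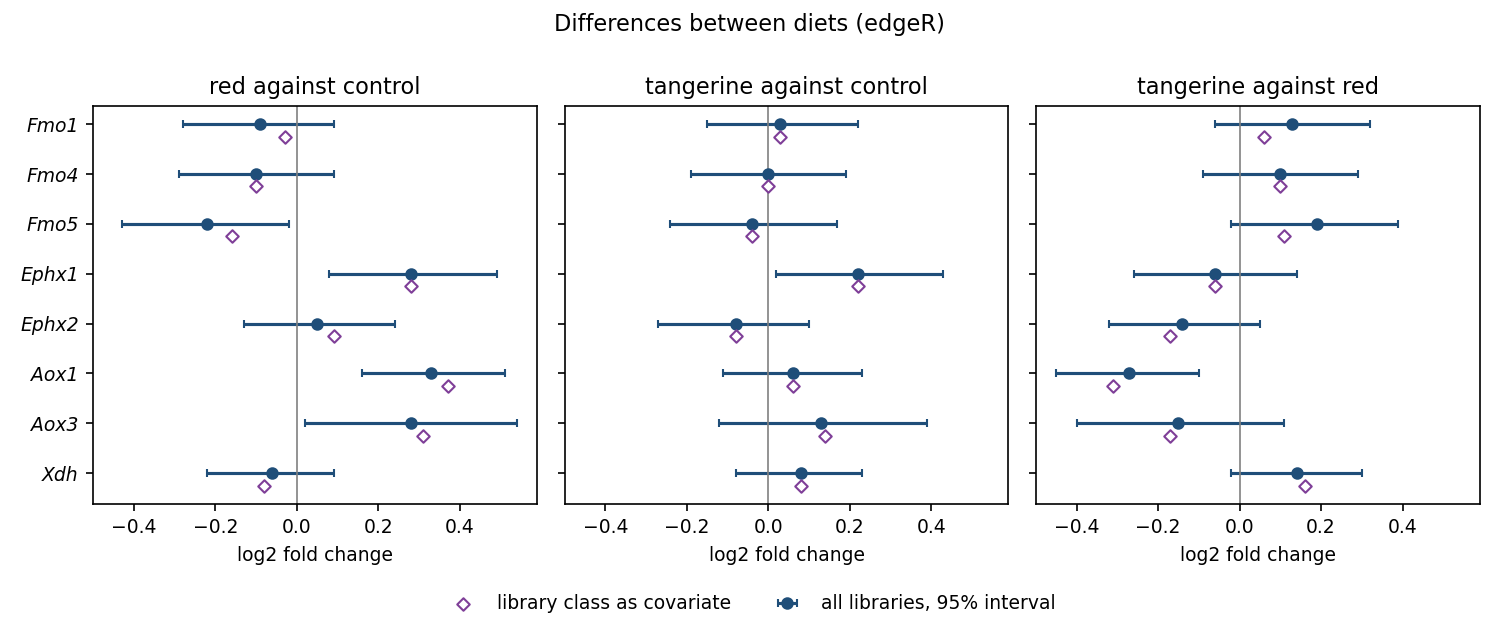
Log2 fold changes of the 8 genes in 3 comparisons (edgeR, 36 libraries): circles with 95% intervals, and diamonds for the estimate with library class as covariate. On red the intervals of Aox1 (0.16 to 0.51), Ephx1 and Aox3 lie above 0 and that of Fmo5 lies below 0, before adjustment over all genes.

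Many liver enzymes follow the circadian clock, so the relation of each gene to it was measured within diets. A clock score was formed from 10 core clock genes, high when the clock output gene Dbp is high. Control livers averaged 0.66 ± 2.39 (SD, n = 12), red livers -2.24 ± 1.90 and tangerine livers 1.57 ± 1.98. With diet means subtracted, 3 of the 8 genes followed the score over 36 livers at a permutation p adjusted over 8 tests. Of all tested genes, 9.18% had an r of at least 0.440 in size, the smallest of the 3. Xdh did so most closely (Pearson's r 0.619, permutation p 5e-05, adjusted 0.0004; Spearman's rho 0.616, adjusted 0.00072). Its r was 0.628 in control, 0.623 in red and 0.603 in tangerine livers, 0.665 and 0.615 in the low and high library classes, and 0.583 without the 2 livers farthest from the median score. Fmo5 (r 0.469, adjusted permutation p 0.0167) and Fmo1 (r 0.440, adjusted permutation p 0.0188) had weaker relations, which were 0.498 and 0.409 without those 2 livers. They were uneven: the r of Fmo5 was 0.213 in control, 0.762 in red and 0.584 in tangerine livers, and that of Fmo1 was 0.283 in the low and 0.551 in the high library class. The Spearman values were 0.463 and 0.451. For Ephx1, Ephx2, Aox1, Aox3 and Fmo4 r lay between -0.0913 and 0.121.

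With the score as covariate, the log2 fold change of Fmo5 on red against control went from -0.22 to -0.06, and that of Xdh from -0.06 to 0.10. Aox1 (0.31, unadjusted p 0.00379, edgeR adjusted p 0.330) and Ephx1 (0.26, unadjusted p 0.0331, edgeR adjusted p 0.446) kept most of their estimates. In tangerine against red, the covariate moved Fmo5 from 0.19 to -0.04 and Xdh from 0.14 to -0.08, while Aox1 stood at -0.24. Without a collection time in the labels, diet and time of collection cannot be told apart.

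The 8 genes were next compared with one another across mice, again with diet means subtracted. Of 28 pairs, 10 were correlated at an adjusted permutation p under 0.05, all positively. An r of at least 0.419, the smallest of the 10, was found for 7.53% of all pairs of tested genes. The closest pair was Ephx1 and Aox1, with Pearson's r of 0.726 (permutation p 1e-05, the smallest that 100000 resamples can give, adjusted 0.00028) and Spearman's rho of 0.674 (adjusted 0.00056). Their r was 0.488 in control, 0.738 in red and 0.929 in tangerine livers. It was 0.590 in the low and 0.868 in the high library class, and 0.647 without control 136 and tangerine 226, the livers farthest from the median of Aox1.

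A second group was formed by Fmo5, Xdh and Fmo1. Fmo5 and Xdh had an r of 0.620 (adjusted permutation p 0.00112, rho 0.582, and 0.530 without the 2 farthest livers). Fmo1 and Fmo5 had 0.591 (adjusted permutation p 0.00121, rho 0.525, and 0.592 without 2), and Fmo1 and Xdh 0.483 (adjusted permutation p 0.0156, rho 0.496, and 0.481 without 2). These are the 3 genes that followed the clock score. Ephx2 joined Aox1 (r 0.504, rho 0.410), Ephx1 (r 0.472, rho 0.445) and Fmo1 (r 0.465, rho 0.542), with adjusted permutation p of 0.0128, 0.0161 and 0.0178. These relations of Ephx2 were uneven between diets. In the same order, r was 0.304, 0.0389 and 0.0903 in control livers and 0.128, 0.389 and 0.272 in red livers. In tangerine livers it was 0.890, 0.856 and 0.862. Fmo1 was further correlated with Aox1 (r 0.454, rho 0.437) and Ephx1 (r 0.448, rho 0.395), each with an adjusted permutation p of 0.0185, although the rho of the latter pair did not pass (adjusted 0.0557). The r of Fmo1 with Aox1 was 0.326 in control, 0.312 in red and 0.660 in tangerine livers. With Ephx1 it was -0.0392, 0.602 and 0.660.

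Aox1 and Aox3 lie next to each other on chromosome 1, and their r was 0.221 (adjusted permutation p 0.344), or 0.386 without red 186 and control 189, the livers farthest from the median of Aox3. The r of Aox3 with Ephx1 was -0.0293. Its single correlated partner was Ephx2 (r 0.419, adjusted permutation p 0.0306), a relation that rested on red 186 and control 189 and fell to 0.254 without them. Fmo4, which lies beside Fmo1 on chromosome 1, was correlated with none of the other 7 and had an r of 0.130 with Fmo1.

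**Figure D4:**
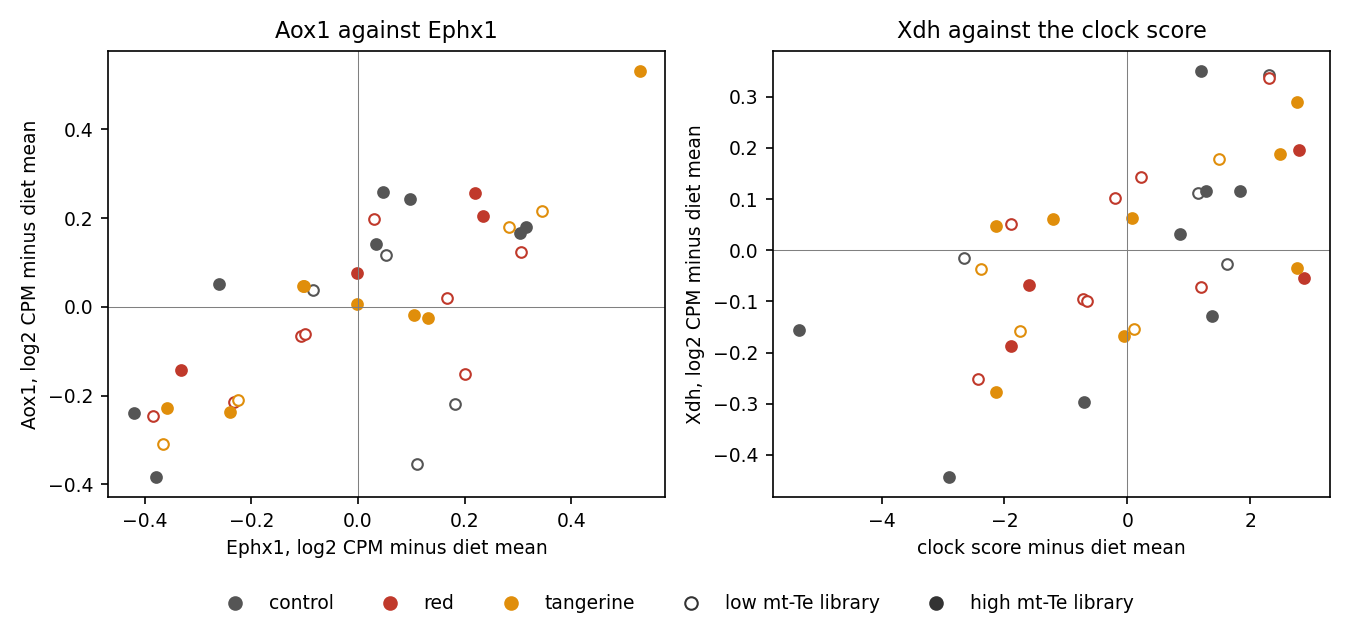
Left, Aox1 against Ephx1 (log2 CPM minus the diet mean) in 36 livers, r 0.726; the point at the top right is tangerine 226. Right, Xdh (log2 CPM minus the diet mean) against the clock score minus its diet mean, r 0.619. Colours give the diet, and open and filled points the low and high library classes.

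The genes whose abundance was most like each of the 8 over 36 livers, with diet means subtracted, are given as a description of likeness, since all values come from the same libraries. Fmo1 was most like Mat1a (r 0.877), which makes S-adenosylmethionine, and Aplp2 (0.861). Ephx2 was most like Slc27a2 (0.848) and Decr1 (0.833), both of fatty acid metabolism. Aox3 was most like Cyp7b1 (0.808), an oxysterol hydroxylase, and the zinc finger gene Zfp37 (0.804). Fmo5 was most like Gin1 (0.809) and Susd6 (0.792), and Xdh most like the cytochrome P450 gene Cyp2a5 (0.743) and Mroh1 (0.716). Lower values were found for Aox1, with Entpd5 (0.712) and Pcsk6 (0.651), Ephx1, with Creg1 (0.690) and Cpt2 (0.645), and Fmo4, with Uqcrc2 (0.691) and Acsl5 (0.679). Of these 16 genes, Cyp2a5 differed between the tomato types, as did 1.71% of all genes. It was higher on tangerine by a log2 fold change of 1.02 (edgeR adjusted p 0.0309).

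The molybdenum enzymes depend on other genes, which were examined as a list of 13 of which 11 were tested. On red against control 0 of 11 passed (4 at an unadjusted p under 0.05, 3 of them higher, with Aox1 and Aox3 among the 11), beside 0.149% and 13.3% of all genes, and their median log2 fold change was 0.02 against 0.00 over all genes. The gene that came closest after Aox1 was Mocos, whose enzyme adds the sulfur that aldehyde oxidases and xanthine dehydrogenase need on their cofactor. Mocos ranged from 45.7 to 66.4 CPM on control (median 52.4) and from 56.0 to 69.8 CPM on red (median 65.6). As for Aox1, 12 of 12 red values exceeded the control median, and 4 exceeded the highest control. The estimate was 0.25 (SE 0.0659, edgeR adjusted p 0.0729), or 0.22 with library class and 0.11 with the clock score in the model. On tangerine it had a median of 55.1 CPM and an estimate of 0.01 against control. Between the tomato types Mocos was the 1 gene of 11 that passed, beside 1.71% of all genes. It was lower on tangerine by -0.24 (SE 0.0659, edgeR adjusted p 0.0468). That call was lost when library class entered the model (edgeR adjusted p 0.0808). Adding the clock score in its place gave -0.05 (edgeR adjusted p 0.795).

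Downstream of Xdh, urate oxidase fell on red powder. In the list of 14 genes of purine breakdown and salvage, 10 were tested. Aprt, Urah and Pnp2 had 0 counts in every library, the cause of which was not tested. On red against control 1 of the 10, Uox, passed and was lower, beside 0.149% of all genes. Uox ranged from 1607 to 2086 CPM on control (median 1716) and from 1232 to 1573 CPM on red (median 1404), so that all 12 red libraries lay below every control. Urate oxidase thus differed by -0.36 on the log2 scale (SE 0.0685, edgeR adjusted p 0.0156), and by -0.35 and -0.31 in the low and high library classes. On tangerine Uox ranged from 1160 to 2201 CPM (median 1786) and had an estimate of 0.00 against control. Tangerine was higher than red by 0.35 (SE 0.0685, edgeR adjusted p 0.00785), where 1 of the 10 genes passed beside 1.71% of all genes. With the clock score as covariate the red against control estimate was -0.31 and did not pass (edgeR adjusted p 0.214). The guanine deaminase gene Gda and Urad, which acts after urate oxidase, had estimates of 0.44 (edgeR adjusted p 0.136) and 0.24 (edgeR adjusted p 0.210) for tangerine against red. Adding the clock score to the model gave 0.23 for Gda and 0.03 for Urad, and adding library class 0.23 and 0.28. The 10 genes had median log2 fold changes of -0.05, 0.03 and 0.09 in red against control, tangerine against control and tangerine against red, against -0.01 to 0.00 over all genes.

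**Figure D5:**
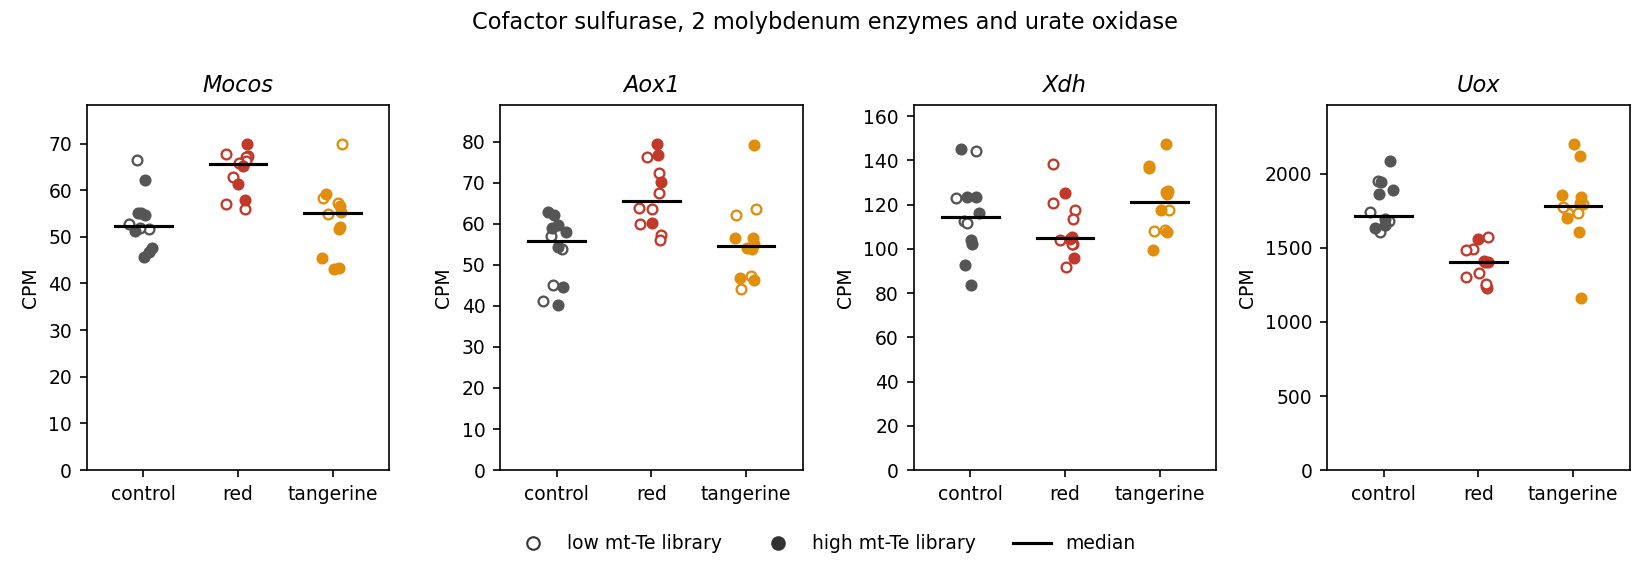
Abundance (CPM, axis from 0) of Mocos, Aox1, Xdh and Uox in each library by diet, with bars at medians and open and filled points for the low and high library classes. All 12 red libraries lie below every control for Uox (1232 to 1573 against 1607 to 2086 CPM), whereas Xdh overlaps between diets.

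Upstream of Ephx2 stand the P450 genes that make fatty acid epoxides. Of 9 such genes 8 were found by symbol in the count table, and these 8 were tested. The 1 that passed against control was Cyp2c29, beside 0.149% of all genes on red and 0.0142% on tangerine. Its log2 fold change was 0.81 on red (SE 0.0928, edgeR adjusted p 2.17e-06) and 0.57 on tangerine (SE 0.0925, edgeR adjusted p 0.00476). With library class in the model these were 0.82 and 0.57. On red it was 0.87 in the low and 0.74 in the high class (edgeR adjusted p 0.0250 and 0.118). On tangerine it was 0.51 and 0.61 (edgeR adjusted p 0.194 and 0.0794). The median of the 8 was 0.01 on red and -0.04 on tangerine. Cyp2c50 had an estimate of 0.40 on tangerine (SE 0.0920, edgeR adjusted p 0.255) and Cyp2c54 one of 0.46 (SE 0.144, edgeR adjusted p 0.587). Within the low library class these were 0.24 and 0.26. Reads may be shared between these similar genes, so their single levels are uncertain.

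None of the 4 electron donors passed in any comparison in edgeR, with 0 of 4 at an unadjusted p under 0.05 against control on either powder and 2 of 4 between the tomato types, where 15.1% of all genes had one. Por, the reductase that feeds the P450 enzymes, varied widely, from 49.6 to 384 CPM. Tangerine against red gave 0.73 for Por (SE 0.290, edgeR adjusted p 0.210), which turned to -0.28 once the clock score entered the model. Among 16 regulators of liver drug metabolism, 0 passed against control in edgeR (3 on red and 2 on tangerine at an unadjusted p under 0.05, where all genes had 13.3% and 5.47%), and Cebpa passed between the tomato types, as did 1.71% of all genes. This hepatocyte transcription factor gene was higher on tangerine by 0.31 (SE 0.0845, edgeR adjusted p 0.0452), with medians of 318 CPM on control, 282 on red and 368 on tangerine. The estimate was 0.28 with library class in the model (edgeR adjusted p 0.0840) and 0.10 with the clock score (edgeR adjusted p 0.684). Stat5b, a growth hormone signal transducer, had 0.24 on red (SE 0.0776, edgeR adjusted p 0.143), and 11 of 12 red values exceeded the control median. For Stat5b a model that included the clock score gave 0.04. Keap1, the repressor of NRF2, had 0.13 on red and 0.14 on tangerine (edgeR adjusted p 0.245 and 0.625), with 11 and 12 of 12 libraries above the control median. In the list of 11 other phase I genes, Nqo2 and Hsd11b1 had 0 counts in every library, the cause of which was not tested. Of that list 8 were tested and 0 passed in any comparison in edgeR (3 on red against control at an unadjusted p under 0.05, all lower, beside 13.3% of all genes). Among them the monoamine oxidase gene Maoa had -0.28 (SE 0.0905, edgeR adjusted p 0.152) and the carbonyl reductase gene Cbr1 -0.24 (SE 0.0850, edgeR adjusted p 0.194) on red against control. Within the high library class Maoa had -0.09, and with the clock score as covariate Cbr1 had -0.15.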

How the data were processed

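The authors deposited 1 table of raw read counts per gene, not normalized, for 36 libraries. FastQC, Trimmomatic, edgeR and the build GRCm38.p6 are named in the submitters' processing notes. The aligner, counting program, annotation release and strand setting are not given in the sources used here. Per the labels, RNA came from preserved liver and libraries from a directional kit. Symbols were matched by Ensembl identifier (53620 of 53715). No pair of the 630 was a near duplicate (smallest chi-square per degree of freedom 13.7). Each library has a mouse number of its own, taken as 1 mouse each.

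Low counts were removed with edgeR 4.0.16 (filterByExpr) and libraries scaled by TMM. The quasi-likelihood F test was fitted to all 36 libraries without covariates, with Benjamini-Hochberg adjustment over 14068 genes and a threshold of 0.05. SEs came from the F statistic. Log2 CPM used a prior count of 2. Correlations used two-sided permutation tests with 100000 resamples, and their shares over all genes and pairs were computed after seeing the data. Library class was set by the largest gap in mt-Te. Alternatives included DESeq2 1.42.0, limma 3.58.1 and sva 3.50.0. The edgeR fit was tested on counts simulated for each gene on its own, without library classes or clock differences. That simulation cannot show how the fit behaves where these are present. List genes named are those past the threshold and up to 3 per list with the smallest p. The 8 genes, lists and tests were chosen with earlier results of these data known, and library class after seeing the data.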

Additional observations from a re-analysis of the deposited data

Results flagged for a closer look

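In the direct test of tangerine against red, 3 of the genes linked to these enzymes passed, beside 1.71% of all genes. They were 1 of 11 tested molybdenum genes, 1 of 10 purine genes and 1 of 16 regulators. In the other lists 0 passed, among 4 tested flavin monooxygenases, 3 epoxide hydrolases, 8 epoxygenases, 4 electron donors and 8 other phase I genes. The cofactor sulfurase gene Mocos was lower on tangerine by -0.24 on the log2 scale, with the tangerine estimate against control at 0.01 and the red estimate at 0.25. Urate oxidase, Uox, was higher on tangerine by 0.35, with 0.00 on tangerine and -0.36 on red against control. Cebpa was higher on tangerine by 0.31, with 0.17 on tangerine and -0.14 on red against control. With the clock score as covariate none of the 3 passed, but the estimates moved unlike one another. Uox had 0.29 (edgeR adjusted p 0.224), Mocos -0.05 (edgeR adjusted p 0.795) and Cebpa 0.10 (edgeR adjusted p 0.684). The part of the clock in these differences was not tested further.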

How the results depend on the processing

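For the 8 genes, 0 passed in the 4 comparisons in the edgeR fit, and the number moved in a few settings. On red against control it was 1 (Aox1) with the DESeq2 test and with limma-voom, and 2 (Aox1 and Aox3) with surrogate variables, where 2.6% of all genes passed. On tangerine against red it was 1 (Aox1) with limma-voom (5.3% of all genes) and 3 (Aox1, Aox3 and Ephx2) with surrogate variables (5.82%). Leaving out 1 library gave 0 to 1 on tangerine against red and 0 to 0 in the other comparisons. The cause was not tested. Of 448 estimates under 14 settings, 440 stayed on the same side of the threshold, 8 newly passed and 34 changed sign, all of these 34 below the threshold. Uox kept its call on red in 10 of 14 settings and without any 1 library. Mocos and Cebpa kept theirs between the tomato types in 4 and 6 of 14 settings, and in 14 and 19 of 36 fits without 1 library. The correlation of Ephx2 and Aox3 was 0.295 without red 186 and tangerine 216 and 0.286 with class means subtracted, and did not pass. No paired analysis was possible because no mouse number occurs in more than 1 diet. The 95% intervals show the precision that 12 libraries per diet gave.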

Other observations

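Mocos was compared with the 3 enzymes whose cofactor it completes, a choice made after the values of Mocos and Aox1 on red had been seen. With diet means subtracted over 36 livers, its Pearson's r was 0.162 with Aox1 (permutation p 0.345, adjusted over 3 tests 0.345), -0.271 with Aox3 (permutation p 0.110, adjusted 0.165) and -0.368 with Xdh (permutation p 0.0270, adjusted 0.0810). Spearman's rho was 0.0903, -0.208 and -0.351 (permutation p 0.597, 0.221 and 0.0363, adjusted 0.597, 0.332 and 0.109), and r without the 2 livers farthest from the median of Mocos was 0.101, -0.286 and -0.433. Within the low and high library classes r was 0.299 and 0.246 with Aox1, -0.231 and -0.281 with Aox3, and -0.222 and -0.561 with Xdh. The genes Aox1 and Mocos, both above the control median in 12 of 12 red livers, were thus not shown to move together from mouse to mouse within diets.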
